A study of Mus musculus with 6 samples.

Results

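The genes described here are 8 markers of CA1 pyramidal cells, the principal neurons of the CA1 field of the hippocampus: Fibcd1, Wfs1, Pou3f1, Crym, Man1a, Spink8, Neurod6 and Itpka. They were measured on mouse expression arrays of hippocampal RNA, on which several short probes that together report a transcript form a probe set. All probe sets annotated to exactly 1 of these symbols were taken, which gave 10 probe sets out of 45037 and 8 genes out of 18193. Pou3f1 and Man1a had 2 probe sets each and the other genes 1. A gene is described by its probe set with the highest mean over all 6 arrays unless another is named.

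Of the 6 mice, 3 were Dp(11)17/+, which carry a duplicated segment on 1 homologue of chromosome 11, and 3 were wild type (+/+). The series title presents the line as a mouse model for Potocki-Lupski syndrome, a human disorder caused by duplication of the corresponding segment of chromosome 17. All 6 mice were of the C57BL/6-Tyr c-Brd background, were labelled male, were 11 to 14 weeks old and gave 1 array each. The extraction protocol in the labels names other organs and not the hippocampus, and the labelling protocol mentions pools. The sample records name the hippocampus and were followed, with each record taken as 1 mouse. The duplication is constitutive, so it is carried by all cells of the tissue, and none of the 8 genes lies on chromosome 11.

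The CA1 field receives input from CA3 and sends the main output of the hippocampus to the subiculum and cortex. Its pyramidal cells are told apart from those of CA3 and CA2 and from the granule cells of the dentate gyrus by sets of genes found in atlases of in situ hybridization, and several of these genes are also transcribed elsewhere in the forebrain. Neurod6 is shared by pyramidal neurons of hippocampus and neocortex, Itpka and Crym are also found in cortex, and Wfs1 and Crym are also found in parts of the striatum. In a bulk tissue sample, fewer CA1 cells and less of the RNA per CA1 cell cannot be told apart.

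Values are log2 values made by the authors with RMA, so that a difference of 1 is a doubling of signal. The array medians lay between 3.74 and 3.79 and the upper quartiles between 5.89 and 5.99. Arrays give signals and no counts, and the number of mice limits the precision. Checked against the labelled tissue, all 8 CA1 genes had wild-type means between 6.73 and 9.61, above the upper quartile of every array. In single duplication mice some lay below that quartile, with Fibcd1 at 5.60 in replicate 1 and at 4.24 in replicate 3, and Spink8 at 3.29 in replicate 3. Duplication replicate 1 did not match its labelled sex. Its Xist value was 9.13, against 3.06 to 3.69 in the other 5 mice, and its Eif2s3y value was 2.48, against 5.41 to 6.01. Duplication replicate 3 stood apart in markers of regions next to the hippocampus, given below. Results are therefore also given without each of these mice.

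Over the whole group, none of the 8 genes was called as different between genotypes. All 8 had a lower mean in Dp(11)17/+ mice than in +/+ mice, with log2 fold changes from -1.37 for Spink8 to -0.14 for Itpka and a median of -0.71. Over the 7104 genes whose mean was at least 6 on the log2 scale, 59.1% were lower and the median difference was -0.03. The limma fit over all 45037 probe sets, with Benjamini-Hochberg adjustment, called 0 of the 10 probe sets at an adjusted p under 0.05, against a background of 0% of all probe sets (0 of 45037). Before adjustment 0 of the 10 had p under 0.05, against 2.82% of all probe sets, and every 95% confidence interval held 0. In 0 of the 10 did every duplication mouse lie below every wild-type mouse, against 4.61% of all probe sets, and in 0 above, against 3.41%. The spread was wider within the duplication group than within the wild-type group. Replicate 3 lay below every wild-type mouse in all 8 genes and replicate 1 in 7, whereas replicate 2 lay above the wild-type mean in 7. In the dimmer Man1a probe set, duplication replicate 3 lay inside the wild-type range, at 5.64 against 5.63 in wild-type replicate 3.

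**Figure D1:**
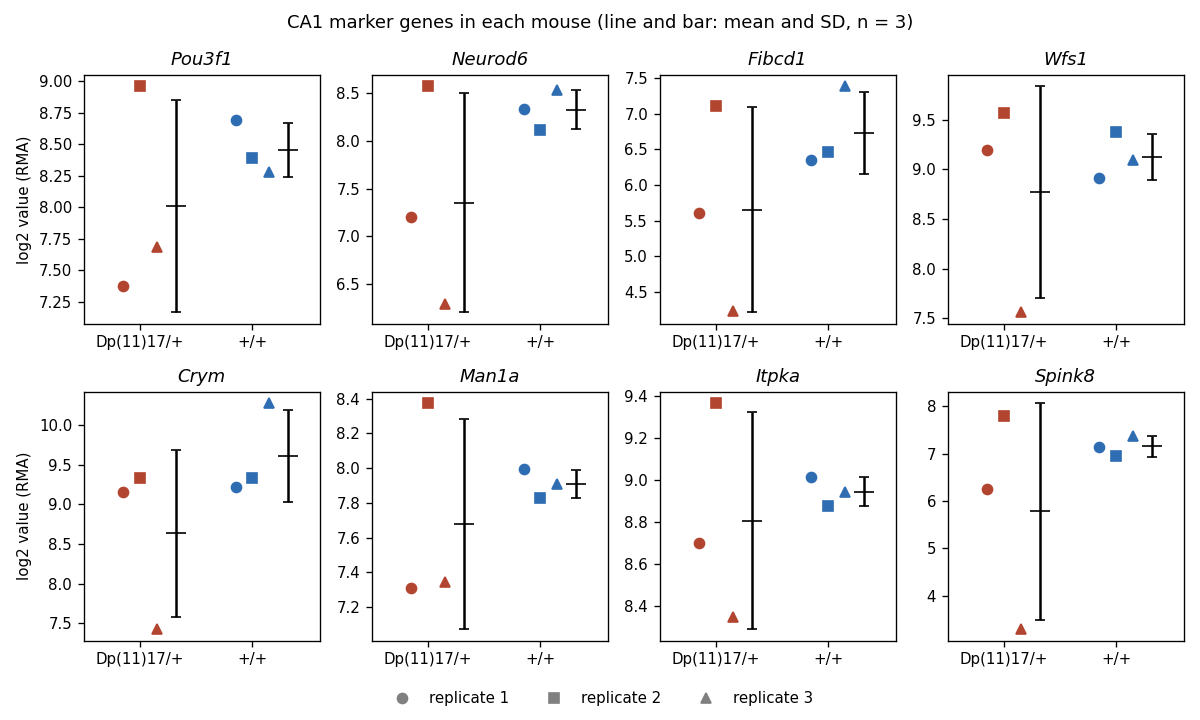
Log2 RMA value of each CA1 marker gene (vertical axes, a separate scale for each gene) in 3 Dp(11)17/+ mice (red, left) and 3 +/+ mice (blue, right), with black lines and bars for the mean and SD (n = 3 each). Symbols mark the replicate within each group, and the duplication mice spread more widely than the wild-type mice in all 8 genes.

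Among the transcription factors, Pou3f1, which encodes a POU-domain protein also known from Schwann cell myelination, was measured by 2 probe sets. The brighter had log2 values of 7.38, 8.96 and 7.68 in duplication replicates 1, 2 and 3, against 8.69, 8.39 and 8.28 in wild-type replicates 1, 2 and 3. Replicate 2 of the duplication group was thus the highest of all mice and the other two were the lowest. Duplication mice averaged 8.01 ± 0.84 and wild-type mice 8.45 ± 0.22 (SD, n = 3 each), with a log2 fold change of -0.45 (SE 0.38, 95% confidence interval -1.35 to 0.45, limma adjusted p = 0.994). The dimmer probe set had values of 6.01, 7.84 and 6.27 in duplication mice, against 7.39, 6.93 and 7.17 in wild-type mice. Its log2 fold change was -0.46. Between the probe sets, the difference of a mouse from the wild-type mean varied by -0.19 to 0.18.

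Neurod6, a basic helix-loop-helix factor of forebrain pyramidal neurons, had log2 values of 7.20, 8.57 and 6.29 in duplication replicates 1, 2 and 3, against 8.33, 8.12 and 8.53 in wild-type mice. Duplication replicates 1 and 3 lay below all wild-type mice, and replicate 2 lay just above them. Duplication mice averaged 7.35 ± 1.15 and wild-type mice 8.33 ± 0.21 (SD, n = 3 each). The log2 fold change was -0.97 (SE 0.51, interval -2.18 to 0.23), with the smallest unadjusted p of the 8 genes, 0.0980 (limma adjusted p = 0.994).

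Promoter sequences are shown for 2 members because the 8 genes shared an order in the duplication mice, with replicate 2 above replicates 1 and 3, while the base composition at their starts differed. RefSeq windows of 300 bases, from 250 before to 50 after the annotated start (GRCm38.p6), matched 5 of the 8 genes. That of Neurod6 had a GC content of 46.3% with 3 CG dinucleotides, and those of Man1a, Itpka, Fibcd1 and Wfs1 had 70.0% to 74.3% with 30 to 46. Over all 32851 windows the median GC content was 52.7%. The E-box CAGATG, a hexamer bound by factors of the NeuroD family, was searched on both strands (reverse complement CATCTG). It was found in 1 of the 5 member windows, that of Wfs1, and in 17.2% of all windows. The octamer ATGCAAAT, bound by POU factors (reverse complement ATTTGCAT), was found in 0 of 5 and in 1.74% of all, and TATAAA (reverse complement TTTATA) in 0 of 5 and in 13.6% of all. A match is a stretch of letters, not a shown binding site. The Neurod6 window lies on the minus strand at chr6:55681214-55681513 and the Wfs1 window on the minus strand at chr5:36988933-36989232, both 5′ to 3′, with the E-box match in capitals at position -170 from the annotated start of Wfs1.
Neurod6: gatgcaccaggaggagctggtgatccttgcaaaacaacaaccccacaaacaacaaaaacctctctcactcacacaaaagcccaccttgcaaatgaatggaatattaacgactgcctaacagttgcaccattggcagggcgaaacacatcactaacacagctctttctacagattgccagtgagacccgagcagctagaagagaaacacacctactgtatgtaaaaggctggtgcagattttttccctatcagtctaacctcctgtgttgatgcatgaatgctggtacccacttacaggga
Wfs1: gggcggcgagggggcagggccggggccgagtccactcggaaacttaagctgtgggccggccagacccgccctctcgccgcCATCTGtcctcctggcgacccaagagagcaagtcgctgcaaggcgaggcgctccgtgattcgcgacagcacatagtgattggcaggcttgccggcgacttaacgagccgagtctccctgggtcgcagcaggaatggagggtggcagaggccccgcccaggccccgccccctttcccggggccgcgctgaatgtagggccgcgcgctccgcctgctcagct

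Of the membrane proteins, Fibcd1, a receptor with a fibrinogen domain that binds acetylated sugars, had log2 values of 5.60, 7.11 and 4.24 in duplication replicates 1, 2 and 3, against 6.35, 6.46 and 7.39 in wild-type mice. Replicates 1 and 3 of the duplication group were below all wild-type mice, while replicate 2 was within their range. Duplication mice averaged 5.65 ± 1.44 and wild-type mice 6.73 ± 0.57 (SD, n = 3 each), a log2 fold change of -1.08 (SE 0.67, interval -2.67 to 0.51, limma adjusted p = 0.994).

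Wfs1 encodes wolframin, a protein of the endoplasmic reticulum whose loss causes Wolfram syndrome in humans. Its log2 values were 9.19, 9.56 and 7.56 in duplication replicates 1, 2 and 3, against 8.92, 9.38 and 9.09 in wild-type mice. Duplication replicate 3 alone was below the wild-type range, and replicate 1, below the wild-type range in the 7 other genes, was inside it here. Duplication mice averaged 8.77 ± 1.06 and wild-type mice 9.13 ± 0.23 (SD, n = 3 each), with a log2 fold change of -0.36 (SE 0.48, interval -1.48 to 0.77, limma adjusted p = 0.994).

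Among the enzymes and binding proteins, Crym encodes mu-crystallin, which binds thyroid hormone in the cytosol. It had log2 values of 9.15, 9.33 and 7.42 in duplication replicates 1, 2 and 3, against 9.22, 9.33 and 10.28 in wild-type mice. Duplication replicate 3 was far below the rest and wild-type replicate 3 above them, and the other four mice lay close together. Duplication mice averaged 8.63 ± 1.05 and wild-type mice 9.61 ± 0.58 (SD, n = 3 each), with a log2 fold change of -0.98 (SE 0.52, interval -2.21 to 0.26, limma adjusted p = 0.994). Crym was the 1 gene that duplication replicate 2 had below the wild-type mean, by a log2 difference of -0.29.

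Man1a encodes a Golgi mannosidase that trims N-linked glycans. Its brighter probe set had log2 values of 7.31, 8.38 and 7.35 in duplication mice, against 7.99, 7.83 and 7.91 in wild-type mice. As for Pou3f1, duplication replicate 2 was the highest mouse and replicates 1 and 3 were the lowest. The log2 fold change was -0.23 (SE 0.27, interval -0.88 to 0.41, limma adjusted p = 0.994). The dimmer probe set with values of 5.34, 6.15 and 5.64 in duplication mice, against 6.02, 5.67 and 5.63 in wild-type mice, gave -0.06. The probe sets differed most in duplication replicate 3, which lay -0.56 from the wild-type mean by the brighter and -0.13 by the dimmer.

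Itpka encodes the kinase that converts inositol trisphosphate to inositol tetrakisphosphate and binds actin in dendritic spines. Its log2 values were 8.70, 9.37 and 8.35 in duplication replicates 1, 2 and 3, against 9.02, 8.88 and 8.94 in wild-type mice. It had the same order of duplication mice as Neurod6 on a smaller scale. Duplication mice averaged 8.81 ± 0.52 and wild-type mice 8.95 ± 0.07 (SD, n = 3 each), with a log2 fold change of -0.14 (SE 0.24, interval -0.70 to 0.42, limma adjusted p = 0.994).

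Spink8, which encodes a secreted Kazal-type inhibitor of serine proteases, varied more than the other members. It had log2 values of 6.25, 7.80 and 3.29 in duplication replicates 1, 2 and 3, against 7.13, 6.95 and 7.38 in wild-type mice. In duplication replicate 3 the value ranked at the 38.6th percentile of the array, below the array median, against the 83.8th to 87.7th percentile in wild-type mice. Duplication mice averaged 5.78 ± 2.29 and wild-type mice 7.15 ± 0.22 (SD, n = 3 each), with a log2 fold change of -1.37 (SE 0.998, interval -3.73 to 0.98, limma adjusted p = 0.994). The value of 3.29 was not shown to be above background, since Xist had values of 3.06 to 3.69 in the 5 mice low in it. The size of the Spink8 difference in that mouse, and the SDs, ranges and fold changes that include it, are therefore uncertain. Between duplication replicates 2 and 3 the signal differed 4.87-fold for Neurod6 and 2.02-fold for Itpka.

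Set against the wild-type mean, the 8 genes had a median log2 difference of -0.75 in duplication replicate 1, 0.43 in replicate 2 and -1.80 in replicate 3. In wild-type mice this median lay between -0.14 and 0.10. Duplication replicate 3 was below all wild-type mice in 8 of 8 genes, against 28.9% of all probe sets in that mouse, and replicate 1 in 7 of 8, against 25.2%. Duplication replicate 2 was above all wild-type mice in 6 of 8, against 25.6%. These shares cover all probe sets, dim ones included, whereas the counts use the brightest probe set of each gene. In the dimmer Man1a probe set, duplication replicate 3 lay inside the wild-type range. The members were chosen with earlier results of these data known, so the counts are a description and no test. Duplication replicate 2 was above replicates 1 and 3 in 8 of 8. The SD within the duplication group was 1.81 times that within the wild-type group for Crym, 2.52 times for Fibcd1 and 3.91 to 10.5 times for the other 6 genes. Such ratios rest on 3 mice a group, and their share over all probe sets was not computed. The range of each gene over the 6 mice lay between the 92.4th percentile (Itpka) and the 99.96th (Spink8) of the ranges of genes with a mean of 6 or more.

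The low duplication mice differed in which genes were lowest. In replicate 3, Spink8 was lowest at -3.86 from the wild-type mean, then Fibcd1 at -2.50, Crym at -2.19, Neurod6 at -2.04 and Wfs1 at -1.57, whereas Pou3f1, Itpka and Man1a lay at -0.77, -0.60 and -0.56. In replicate 1, Fibcd1 at -1.13, Neurod6 at -1.12 and Pou3f1 at -1.08 were lowest, and Wfs1 lay at 0.06. Pou3f1 and Man1a were lower in replicate 1 than in replicate 3, by log2 differences of 0.31 and 0.04, and the other 6 genes were lower in replicate 3. Taking each gene's deviations from its own mean over the 6 mice, Neurod6 was closest to the mean of the 8 genes, with a root mean square difference of 0.18 on the log2 scale, and Spink8 was farthest, at 0.80.

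**Figure D2:**
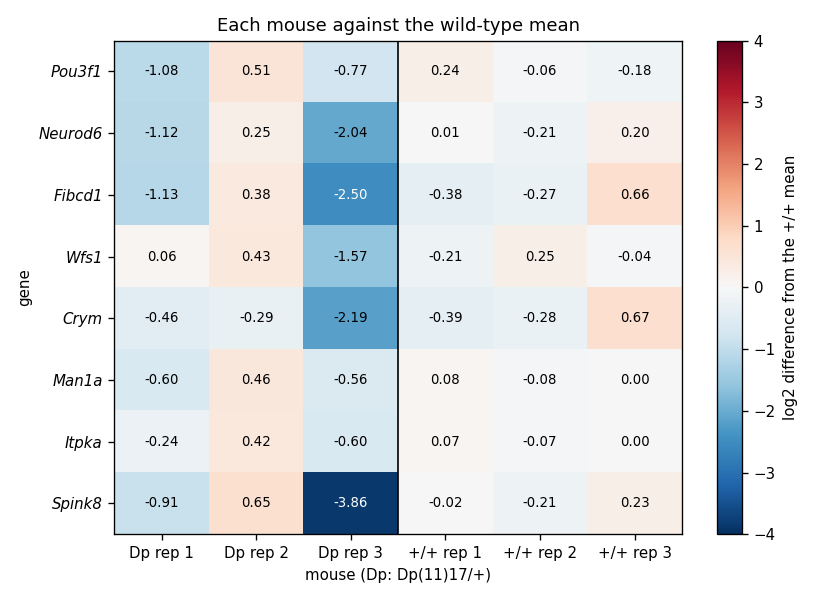
Log2 difference of each mouse from the mean of the 3 +/+ mice, for each CA1 marker gene (rows), with the 3 Dp(11)17/+ mice left of the line and the 3 +/+ mice right of it. Replicate 3 of the duplication group runs from -3.86 for Spink8 to -0.56 for Man1a, replicate 1 from -1.13 to 0.06 and replicate 2 from -0.29 to 0.65.

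Single mice therefore set the size and, for some genes, the sign of the difference between genotypes. Without duplication replicate 3, the log2 fold changes moved to -0.13 for Spink8, -0.37 for Fibcd1, -0.37 for Crym and -0.44 for Neurod6. Those of Wfs1 and Itpka turned to 0.25 and 0.090. Without duplication replicate 1, the mouse whose Xist value goes against its label, they were -1.61 for Spink8, -1.24 for Crym, -1.06 for Fibcd1 and -0.90 for Neurod6. Those of Pou3f1 and Man1a were then -0.13 and -0.05. With duplication replicates 1 and 3 both left out, the remaining duplication mouse was above the wild-type mean in 7 of 8 genes, with a median of 0.43.

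Leaving out duplication replicate 2 had the opposite effect. The log2 fold changes were then -2.38 for Spink8, -1.81 for Fibcd1, -1.58 for Neurod6, -0.93 for Pou3f1, -0.58 for Man1a and -0.42 for Itpka, and these 6 had an unadjusted p under 0.05, against 3.18% of all probe sets lower at that level in the same fit. The smallest limma adjusted p among the 8 was 0.575, so 0 were called. Crym and Wfs1, at -1.32 and -0.75, had unadjusted p of 0.0507 and 0.143. The mouse left out was the highest duplication mouse in all 8 genes, so leaving it out had to lower each duplication mean. The members were also chosen with earlier results of these data known. The p-values of this fit are therefore a description and no test.

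**Figure D3:**
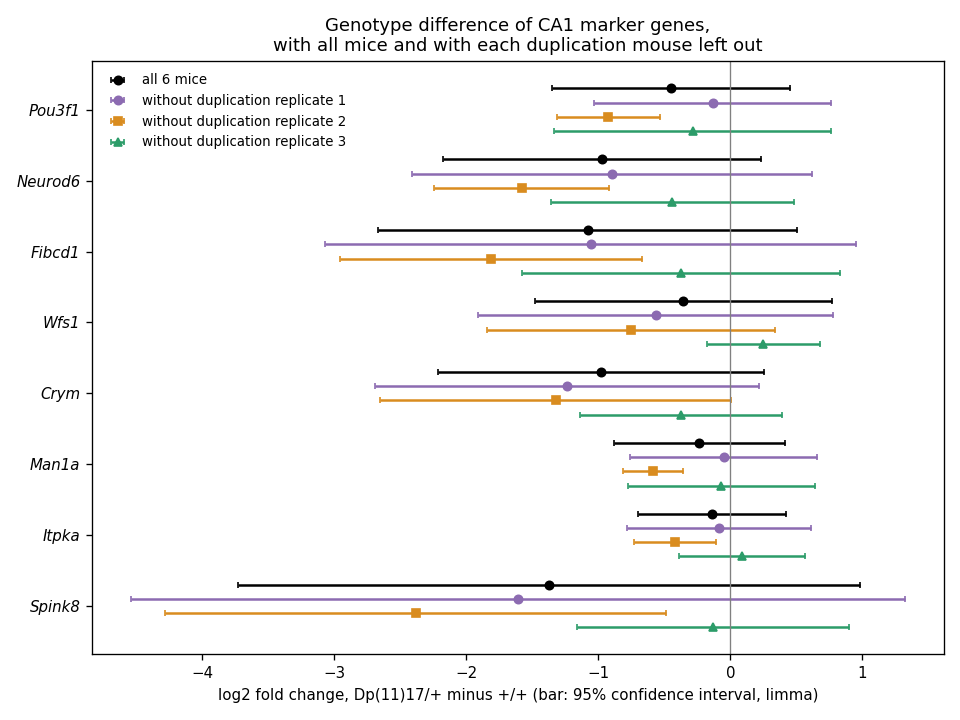
Log2 fold change of each CA1 marker gene, Dp(11)17/+ minus +/+ (horizontal axis), with 95% confidence intervals from limma, for all 6 mice (black) and with each duplication mouse left out in turn. The 8 intervals of the fit with all mice hold 0, and without duplication replicate 2 those of 6 genes lie below 0.

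A further list held other genes reported in CA1. Of its 10 measured genes, 9 were lower and 1 was higher, and the median difference was -0.36. Limma called 0, and 1 had an unadjusted p under 0.05, against 2.82% of all probe sets. Of the 10, 6 had a mean of 6 or more on the log2 scale. The lower genes included Ndst4 and Kcnh7, whose values of 3.49 to 3.79 were not shown to be above background. The 2 brightest were Ccn3, a secreted matrix protein of dorsal CA1, and Htr2c, the serotonin 2C receptor, which is known from ventral CA1 and from choroid plexus. Ccn3 had log2 values of 8.98, 7.92 and 7.67 in duplication replicates 1, 2 and 3, against 7.92, 8.81 and 9.03 in wild-type mice, and Htr2c had 9.04, 6.57 and 8.13, against 8.56, 8.83 and 7.98. Duplication replicate 1, below all wild-type mice in 7 of the 8 members, was the highest mouse for Htr2c and the second highest for Ccn3. The median of this list lay at -0.10, -0.32 and -0.37 from the wild-type mean in duplication replicates 1, 2 and 3.

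Marker lists of other fields and regions are given beside the members because some moved with the same mice. The 8 dentate granule genes lay at a median of -0.87, 0.70 and -1.86 from the wild-type mean in duplication replicates 1, 2 and 3, close to the values of the CA1 members, and 8 of 8 were lower. Of these 8, 4 had a mean of 6 or more on the log2 scale. C1ql2, a synaptic organizer of granule cells, had log2 values of 6.05, 8.29 and 4.28 in duplication mice, against 7.77, 7.76 and 8.06 in wild-type mice. Stxbp6, also bright, had 8.22, 9.10 and 8.23, against 8.77, 8.86 and 8.75. The 9 measured genes of CA2 and CA3 had medians of -0.22, 0.13 and 0.03 in duplication mice, with 6 lower and 3 higher. Of these 9, 4 had a mean of 6 or more. Rgs14, a signalling regulator of CA2, had 8.29, 8.79 and 7.23 in duplication mice, against 8.46, 8.43 and 8.65 in wild-type mice, and Bok, of the BCL2 family, had 7.47, 7.91 and 7.73, against 7.70, 7.61 and 8.04. Limma called 0 in either list. No difference between these lists was tested.

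Striatal markers lay on the other side of wild type. Of 12 measured, 6 had a mean of 6 or more on the log2 scale. All 12 were higher, with medians of 0.95, -0.07 and 1.90 from the wild-type mean in duplication replicates 1, 2 and 3, and limma called 0. Their mean log2 level was 6.31, 5.22 and 7.19 in duplication mice, against 5.11 to 5.67 in wild-type mice. Tac1, the precursor of substance P, had 9.40, 7.25 and 9.42 in duplication mice, against 7.19, 8.73 and 7.43 in wild-type mice, and Adcy5, an adenylyl cyclase, had 8.48, 7.15 and 8.61, against 7.07, 7.84 and 7.72. In the list of thalamus and habenula 4 of 12 genes had a mean of 6 or more. In all, 11 of 12 were higher and limma called 0, with medians of -0.09, -0.03 and 2.11 in duplication replicates 1, 2 and 3. Their mean level was 4.43, 4.31 and 6.59 in duplication mice, against 4.17 to 4.55 in wild-type mice. Its brightest genes were Plekhg1, with 6.37, 7.44 and 8.75 in duplication mice, against 6.91, 6.59 and 6.67 in wild-type mice, and the glutamate transporter Slc17a6, with 6.54, 5.81 and 8.82, against 6.97, 7.94 and 5.95. Neocortical layer markers were higher in 7 of 8 and called in 0, with medians of 0.29, -0.40 and 0.99. Lamp5, of the lysosomal membrane protein family, had 9.26, 8.08 and 10.30 in duplication mice, against 9.76, 8.94 and 8.45 in wild-type mice, while Rasgrf2, an exchange factor for Ras, had 9.46, 9.14 and 9.34, against 9.07, 9.32 and 8.98.

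Thus the mouse with the lowest CA1 values had the highest striatal, thalamic and neocortical medians, and duplication replicate 1 had a striatal median above wild type with a thalamic median near it. The part of these tissues in the CA1 values was not tested. The 10 pan-neuronal genes, with the vesicle genes Syt1 and Snap25 the brightest, had medians of -0.08, -0.16 and 0.07 in duplication mice. The 9 genes of forebrain glutamatergic neurons had medians of -0.06, 0.30 and -0.29, with 5 lower and 4 higher. These 9 were split in duplication replicate 3, from -1.70 from the wild-type mean for Gria1 to 1.01 for Camk4. Limma called 0 in each list. Syt1 had log2 values of 11.64, 11.66 and 11.88 in duplication mice, against 11.73 to 11.82 in wild-type mice, and Snap25 had 11.30, 11.20 and 11.48, against 11.35 to 11.46. The brain calmodulin-binding genes Camk2a and Nrgn were the brightest glutamatergic ones. Nrgn had 11.38, 11.49 and 11.62, against 11.27 to 11.40, and Camk2a had log2 values of 11.63, 11.69 and 11.29 in duplication mice, against 11.53, 11.47 and 11.73 in wild-type mice. RNA integrity was read from actin controls, where 3′ signal exceeded 5′ signal by log2 differences of 1.69, 1.47 and 1.74 in duplication replicates 1, 2 and 3, against 1.45 to 1.63 in wild-type mice. For Gapdh these differences were 0.47, 0.33 and 0.44 in duplication mice, against 0.57, 0.37 and 0.38 in wild-type replicates 1, 2 and 3. For actin, duplication replicates 1 and 3 were above all wild-type mice. For Gapdh, the highest difference was in wild-type replicate 1 and the lowest in duplication replicate 2. The part of RNA quality in the CA1 values was not tested.

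**Figure D4:**
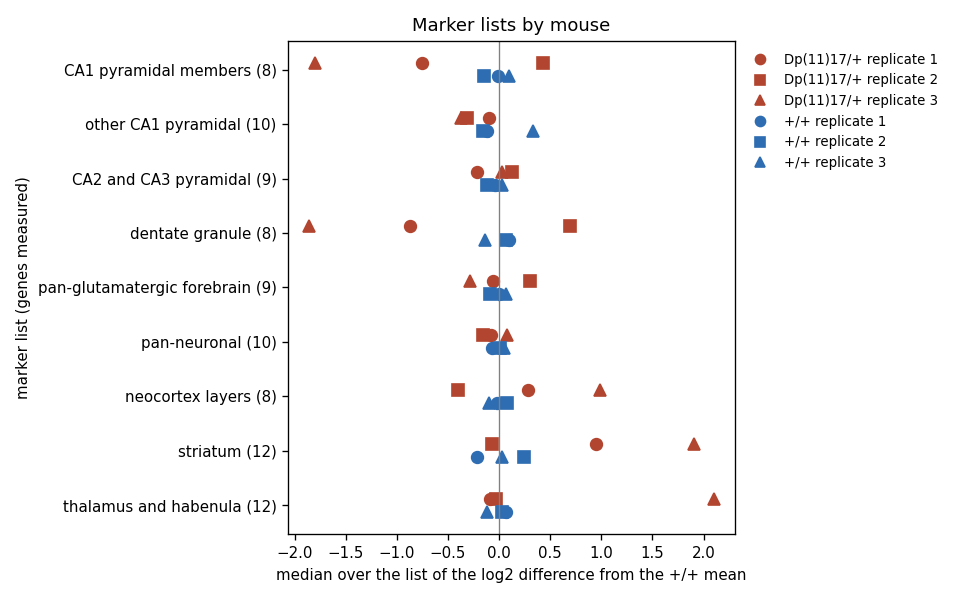
Median over each marker list (rows, with the number of genes measured) of the log2 difference from the mean of the 3 +/+ mice, in each Dp(11)17/+ mouse (red, upper) and each +/+ mouse (blue, lower). The CA1 and dentate lists lie at -1.80 and -1.86 in duplication replicate 3, where the striatal and thalamic lists lie at 1.90 and 2.11.

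Outside the 8 members, 554 genes had a mean of 6 or more and a range over the mice of at least 1. The 8 whose profile over the 6 mice was closest to the mean profile of the members were Prdm8, Gria1, Cacna1h, Pcdh20, Lmo1, Serpina3n, St6galnac5 and Scn3b, at root mean square differences of 0.06 to 0.16 on the log2 scale. Prdm8, a member of the PRDM family of nuclear regulators, had log2 values of 7.43, 8.31 and 6.38 in duplication replicates 1, 2 and 3, against 7.94, 7.92 and 8.21 in wild-type mice. Gria1, the AMPA receptor subunit GluA1, had 9.66, 10.53 and 8.44, against 10.14, 10.07 and 10.21. Both were chosen for likeness to the member profile, so their order in the duplication mice, that of Neurod6, follows from the choice. Closest to the profile with its sign turned were Gabrd, the delta subunit of the GABA-A receptor, then Stard8, Kitl and Olfm3, at 0.17 to 0.20. Gabrd had 6.85, 6.04 and 8.13 in duplication mice, against 6.74, 6.62 and 6.00 in wild-type mice. With 6 mice, such likeness describes these arrays and was given no test.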

How the data were processed

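Hippocampal RNA of 6 mice was measured on Affymetrix 1-colour arrays, 1 per mouse, with genotype taken from the labels and replicates numbered by order. The deposited log2 values were made by the authors with RMA, per the submitters' processing notes, which corrects background, applies quantile normalization and summarises probes. Its version and a genome build are not given in the sources used here. Quantile normalization forces like distributions on the arrays, so values are relative within an array. The values were used as deposited.

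After 64 control probe sets were left out, 45037 were tested, 34945 of them with 1 symbol, 932 with several and 9160 with none. Symbols were updated through Entrez identifiers, of which 34741 were found in a GRCm38.p6 gene table. Genotypes were compared with limma 3.58.1 in R 4.3.3 (lmFit and eBayes without trend, two-sided, 7.11 degrees of freedom, Benjamini-Hochberg over 45037 probe sets, threshold 0.05). The fit was tested on simulated data with noise drawn separately for each probe set, so shifts shared by many genes within a mouse were not covered. The members and marker lists were chosen with earlier results of these data known.

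All 8 members were named at every probe set. Of other lists the 2 brightest genes were named, and profile likeness named 8 genes alike and 4 opposite, by rule. Alternatives were a filter on dim probe sets, 3 other scalings, array weights, a robust prior with an intensity trend, the mean of all probe sets of a gene, each mouse left out and duplication replicate 2 alone. Promoter windows came from RefSeq.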

Additional observations from a re-analysis of the deposited data

How the results depend on the processing

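No paired analysis was possible because the labels give the genotypes no shared replicate numbers. With the filter on dim probe sets, the 3 other scalings, the trend with robust prior, array weights and averaged probe sets, all 8 genes stayed lower in the duplication group and 0 were called. The filter, which kept all 8 genes, and the trend with robust prior could not change a fold change, only its p-value. Array weights gave 1 of the 8 an unadjusted p under 0.05, and array weights and the trend with robust prior each called 1 probe set of the whole array. With each mouse left out, the median log2 fold change ranged from -1.12 to -0.21, the number of lower genes from 6 to 8, the number at unadjusted p under 0.05 from 0 to 6, and 0 were called. Without duplication replicate 3, Wfs1 turned to 0.25 and Itpka to 0.090. Over the mice left out, Wfs1 ranged from -0.75 to 0.25 and Itpka from -0.42 to 0.090. Duplication replicate 2 alone gave a median of 0.43, with 1 gene lower (Crym) and 0.38 for Fibcd1, 0.43 for Wfs1, 0.51 for Pou3f1, 0.46 for Man1a, 0.65 for Spink8, 0.25 for Neurod6 and 0.42 for Itpka. These changes follow from leaving out mice that lay far apart. With 3 mice a group, the intervals of Spink8 and Fibcd1 span more than 3 log2 units.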

Other observations

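Lists of glial, vascular and interneuron markers had medians closer to 0 than the -0.71 of the CA1 genes. Of 8 microglial markers, 8 were higher in duplication mice, at a median difference of 0.14 on the log2 scale, and limma called 0. In duplication replicates 1, 2 and 3 the list had medians of 0.37, 0.11 and -0.01 from the wild-type mean. In wild-type mice these lay between -0.09 and 0.09. Duplication replicate 1, with the highest, is the mouse that did not match its labelled sex. Csf1r, the receptor that microglia need to survive, had log2 values of 10.12, 9.88 and 9.98 in duplication mice, against 9.73, 9.85 and 9.68 in wild-type mice. In 2 of the 8 microglial genes, Csf1r among them, all duplication values were above all wild-type values, against 3.41% of all probe sets. The unadjusted limma p of Csf1r was 0.0402, at a level that 2.82% of all probe sets passed. Ctss, a lysosomal protease, had 9.55, 9.33 and 9.23, against 9.42, 9.33 and 9.18. Of 7 astrocyte markers 6 were higher, at a median of 0.086, and of 7 oligodendrocyte markers 7 were higher, at a median of 0.30. The oligodendrocyte list varied within both groups. Its medians from the wild-type mean were -0.05, 0.24 and 0.60 in duplication replicates 1, 2 and 3. In wild-type replicates 1, 2 and 3 they were 0.38, -0.23 and -0.17. Of 7 endothelial markers 6 were higher, at a median of 0.25, and in 3 of them the groups did not overlap, all duplication values being higher, against 3.41% of all probe sets. These were Flt1, Kdr and Tek, receptors of vascular growth factors named after their values were seen, with differences of 0.39, 0.22 and 0.25 and unadjusted p of 0.0359, 0.0602 and 0.0158. Of 8 interneuron markers 5 were higher, at a median of 0.04. Limma called 0 in each of these lists. Aldoc and Slc1a2 in astrocytes differed by 0.09 and 0.16, Mbp and Cnp in oligodendrocytes by 0.15 and 0.20, Slco1a4 and Cldn5 in endothelium by 0.37 and -0.08, and Sst and Gad1 in interneurons by -0.0023 and -0.11.

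Choroid plexus markers varied within both genotypes and in another order than the CA1 genes. Of 7 measured, 6 were higher, at a median of 0.36, and limma called 0. Of the 7, 1 had a mean of 6 or more on the log2 scale. Ttr, which encodes transthyretin, had log2 values of 12.99, 10.84 and 12.96 in duplication replicates 1, 2 and 3, against 13.07, 8.54 and 9.89 in wild-type replicates 1, 2 and 3, and Clic6 had 6.83, 4.07 and 7.01, against 7.90, 4.23 and 4.02. Wild-type replicate 1, with the highest value, had a CA1 median of -0.01 from the wild-type mean. Duplication replicates 1 and 3, the mice with low CA1 values, had choroid plexus medians of 1.36 and 1.17, and replicate 2 had -0.71. The part of choroid plexus in the CA1 values was not tested.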
